A study of Mus musculus with 18 samples.

Results

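The miR-23/27/24 clusters were followed through 5 mature microRNAs, mmu-miR-23a-3p, mmu-miR-23b-3p, mmu-miR-27a-3p, mmu-miR-27b-3p and mmu-miR-24-3p (written without the species prefix from here on). They were taken by name from the rows of mature miRNAs in the table of small RNA counts, without use of their values. All 5 were present among 1978 mature miRNAs and 203513 features in all, and each of them had at least 1 count in every one of the 18 libraries. In WT brain the pair from the miR-23a cluster was highest in microglia and the pair from the miR-23b cluster was highest in astrocytes, and in microglia of mutant mice miR-27a-3p and miR-27b-3p rose, a pair of calls that was lost with scaling to mature miRNA, with a replicate block and when any of 4 of the 6 libraries was left out.

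The libraries came from mice aged 10 months that were either WT or carried on both alleles a knocked-in CAG expansion in Atxn2 (Atxn2-CAG100-KIN, here KIN), a mouse model of spinocerebellar ataxia type 2. Mice were littermates from heterozygous matings on a C57BL/6 background, none was treated, and the knock-in is carried by every cell of the animal and not by 1 cell type. Per the study's methods each brain was dissociated, microglia were bound by CD11b beads, astrocytes were bound next by ACSA-2 beads, and neurons were left in the flow-through once other cells had been removed. This gave 6 groups (astrocytes, microglia and neurons of WT and of KIN brains) with 3 libraries in each. The labels call the libraries biological replicates and give no sex, while the methods describe WT and KIN pairs of the same sex, some male and some female. Because these were bulk RNA samples, fewer cells of a type and less RNA per cell cannot be told apart.

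Total counts ran from 1211118 to 4316748 per library, and mature miRNAs took from 0.964% to 10.3% of them. The 6 neuron libraries held only 11675 to 49887 mature miRNA counts, against 158787 to 364960 in the glial libraries. The summed level of 3 myeloid miRNAs (miR-142a-3p, miR-142a-5p and miR-223-3p) was 2835 to 5914 CPM of all counts (counts per 1000000 counts of the library) in microglia, 10.2 to 48.5 in astrocytes and 42.9 to 377 in neurons, so microglia bore their label. The summed level of 3 neuronal miRNAs (miR-124-3p, miR-128-3p and miR-138-5p) was 48.7 to 228 in the libraries labelled neurons and 1036 to 3150 in astrocytes, so the neuronal label was not borne out by these miRNAs. The neural miRNAs miR-9-5p and miR-9-3p summed to 5835 to 9496 in WT astrocytes and 82.3 to 245 in WT microglia. In neurons they summed to 964 to 2265 in WT and 2253 to 4079 in KIN. The oligodendrocyte miRNAs miR-219a-2-3p and miR-338-3p summed to 830 to 1496 in WT astrocytes and 19.3 to 21.5 in WT microglia. The erythroid miRNAs miR-451a, miR-144-3p and miR-486a-5p summed to 66.8 to 303 in WT neurons and 43.7 to 76.8 in KIN neurons. In WT astrocytes they summed to 26.7 to 47.0 and in WT microglia to 17.3 to 22.2. The part of other cell types in the astrocyte and neuron levels was not tested. Xist had 4 to 5 counts in KIN replicate 1 of every fraction and 12 to 102 elsewhere, which is at odds with WT and KIN pairs of the same sex. The part of sex in the results below was not tested. Atxn2 transcripts had 0 to 10 counts per library, too few to check the genotype.

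MicroRNAs are short RNAs that guide Argonaute proteins to messenger RNAs, mainly through the seed near their 5′ end. The members arise from a pair of paralogous clusters, in each of which Drosha cuts hairpins of a miR-23, a miR-27 and a miR-24 out of one primary transcript before Dicer trims them. miR-24-3p is identical from both clusters, so its counts cannot be divided between them. The clusters are known from endothelial, myeloid and vascular biology. In various cell types miR-23 has been tied to the apoptosis factor Apaf1, miR-27 to lipid metabolism and Pparg, and miR-24 to the cell cycle and apoptosis.

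The sequences below are those of RefSeq and were identical in the deposited table. They are shown because the paralogues are so alike that their separation in the counts rests on a single base. The capitals mark the seed, bases 2 to 8. No RefSeq entry was used for miR-23b-3p.
miR-23a-3p: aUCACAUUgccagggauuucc
miR-27a-3p: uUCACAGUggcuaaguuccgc
miR-27b-3p: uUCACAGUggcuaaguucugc
miR-24-3p: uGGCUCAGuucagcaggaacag

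Counted from the 5′ end, miR-27b-3p differed from miR-27a-3p by the substitution C19U, outside the seed. miR-23a-3p and miR-23b-3p, both 21 bases long, also differed at 1 base and had the same seed. No other mature miRNA with counts had the seed of miR-23, of miR-27 or of miR-24.

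In GRCm39 the miR-23a cluster spanned chr8:84935147-84935550 on the plus strand, where Mir23a, Mir27a and Mir24-2 lay within 404 bases. GENCODE places no other gene over Mir23a or Mir27a, while the end of Mir24-2 overlapped the long noncoding gene Gm26532. The miR-23b cluster spanned chr13:63448298-63449089, also on the plus strand, and held Mir23b, Mir27b and Mir24-1 within 792 bases. It lay inside Aopep, which encodes an aminopeptidase, and on the other strand inside Fancc, a gene of the Fanconi anaemia pathway. Mir23b was intronic in all 10 transcripts that spanned it, 1 of Fancc and the others of Aopep, whereas Mir27b and Mir24-1 each fell in an exon of 1 Aopep transcript and in introns of the others. Opposite both miR-24 hairpins the annotation holds a miR-3074 hairpin.

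**Figure D1:**
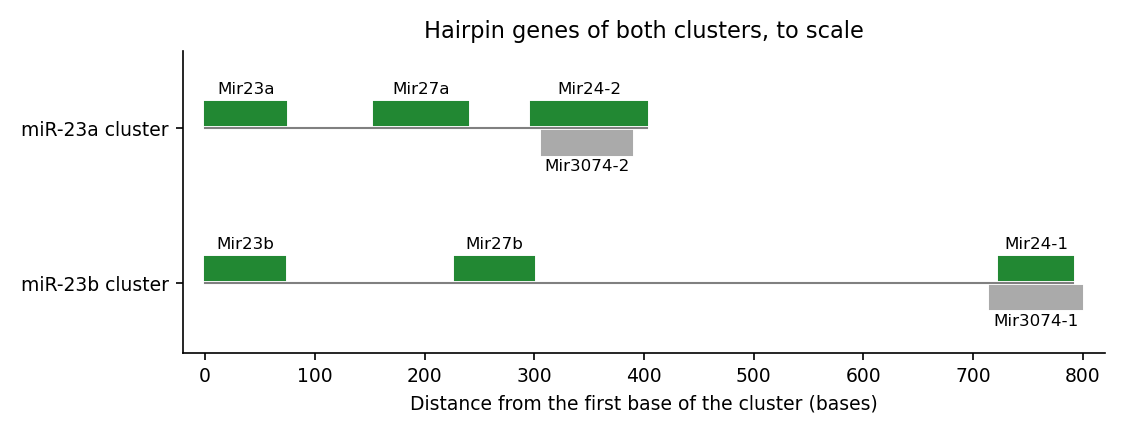
Hairpin genes of the miR-23a and miR-23b clusters drawn to scale, with the distance in bases from the first base of each cluster on the horizontal axis; plus-strand hairpins are green above the line and the minus-strand miR-3074 hairpins grey below it. The 3 hairpins of the miR-23a cluster sit within 404 bases and those of the miR-23b cluster within 792 bases.

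The first question was how the members are distributed over the fractions of WT brain. Tests were edgeR quasi-likelihood tests on the counts with TMM scaling, fitted over every feature that reached 5 counts in 2 or more of the libraries compared. A feature was called when its adjusted p (Benjamini-Hochberg over all features tested) was at most 0.05 and its log2 fold change was at least 1 in size.

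Between microglia and astrocytes the clusters went opposite ways. In CPM of all counts, miR-23a-3p stood at 1910.2, 1667 and 2096 in WT microglia and at 322, 434 and 372 in WT astrocytes. Its close paralogue miR-23b-3p stood at 254, 244 and 299 in microglia and at 444, 682 and 514 in astrocytes. The microglial libraries were thus all above the astrocytic ones for miR-23a-3p and all below them for miR-23b-3p.

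miR-27a-3p repeated the pattern of its cluster partner miR-23a-3p, with 96.8, 99.0 and 120 CPM of all counts in WT microglia against 17.5, 21.9 and 22.5 in WT astrocytes. miR-27b-3p, at 97.1, 102 and 120, was almost level with miR-27a-3p in microglia but reached 242, 438 and 303 in astrocytes. miR-24-3p, which both clusters make, stood at 1259.9, 1301 and 1373 in microglia and at 688, 1082 and 846 in astrocytes. None of the 5 members overlapped between these fractions, as was so for 48.4% of all features and 72.2% of mature miRNAs tested.

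In the edgeR test miR-23a-3p was 5.38-fold higher in microglia (log2 fold change 2.43 ± 0.21 SE, adjusted p = 1.37e-05) and miR-27a-3p was 5.49-fold higher (2.46 ± 0.28, adjusted p = 9.12e-05). miR-27b-3p was lower by a log2 fold change of -1.52 ± 0.28 (adjusted p = 0.00224). For miR-23b-3p the log2 fold change was -0.94 ± 0.24 (adjusted p = 0.0104) and for miR-24-3p it was 0.70 ± 0.23 (adjusted p = 0.0379), both short of the fold required. Thus 3 of 5 members were called, against 31.5% of all features and 57.9% of mature miRNAs. With library totals as the scaling, or without Astrocytes_WT replicate 1 or Microglia_WT replicate 2, miR-23b-3p was called as well, and without Astrocytes_WT replicate 2 miR-24-3p was.

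Within WT microglia miR-23a-3p ranked 5th and miR-24-3p ranked 13th among 725 mature miRNAs with counts, with 3.49% ± 0.21 and 2.43% ± 0.13 of mature miRNA counts (SD, n = 3). In WT astrocytes miR-24-3p was the most abundant member and ranked 22nd among 747, with 1.35% ± 0.04. The members are 21 or 22 bases long, and the part of length and ligation in these ranks was not tested.

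The libraries labelled neurons held little of any member. In CPM of all counts miR-24-3p stood at 42.1, 91.0 and 46.5 in WT neurons, miR-23b-3p at 29.7, 92.5 and 30.1, miR-23a-3p at 10.7, 38.3 and 20.9, and miR-27b-3p at 7.43, 31.2 and 11.8. miR-27a-3p rested on 1, 3 and 2 counts. Neurons_WT replicate 2 was the highest of its group for each member, and all WT neuron libraries were below all WT glial libraries. Against astrocytes the edgeR log2 fold changes ran from -4.46 for miR-27b-3p to -3.62 for miR-23b-3p, and against microglia from -6.51 for miR-23a-3p to -2.58 for miR-23b-3p. All 5 members were called lower in both comparisons, as were 18.5% of all features and 58.6% of mature miRNAs against astrocytes and 14.5% and 57.7% against microglia. Groups without overlap made up 51.9% of all features and 73.2% of mature miRNAs in the first of these comparisons and 46.2% and 72.6% in the second. By counts alone miR-27a-3p was 82.5-fold higher in microglia than in neurons (exact 95% counting interval 37.8 to 225).

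Mature miRNAs as a whole took a smaller share of the neuron libraries, with a median log2 fold change of -2.66 against astrocytes. When the totals of mature miRNA counts were used as the scaling, the log2 fold changes against astrocytes ran from -2.08 to -1.25 and miR-27a-3p lost its call (adjusted p = 0.0657). Against microglia miR-23b-3p and miR-27b-3p lost theirs, at -0.45 (adjusted p = 0.356) and -0.73 (adjusted p = 0.187), whereas miR-23a-3p stayed at -4.36 and miR-27a-3p at -4.37. Levels of miR-23a-3p and miR-27a-3p thus ran from microglia over astrocytes to neurons under both scalings, although the last step for miR-27a-3p did not pass with totals of mature miRNA. Those of miR-23b-3p and miR-27b-3p ran from astrocytes over microglia to neurons, and with totals of mature miRNA the last step passed for neither. miR-24-3p ran from microglia over astrocytes to neurons, its first step short of the fold required.

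**Figure D2:**
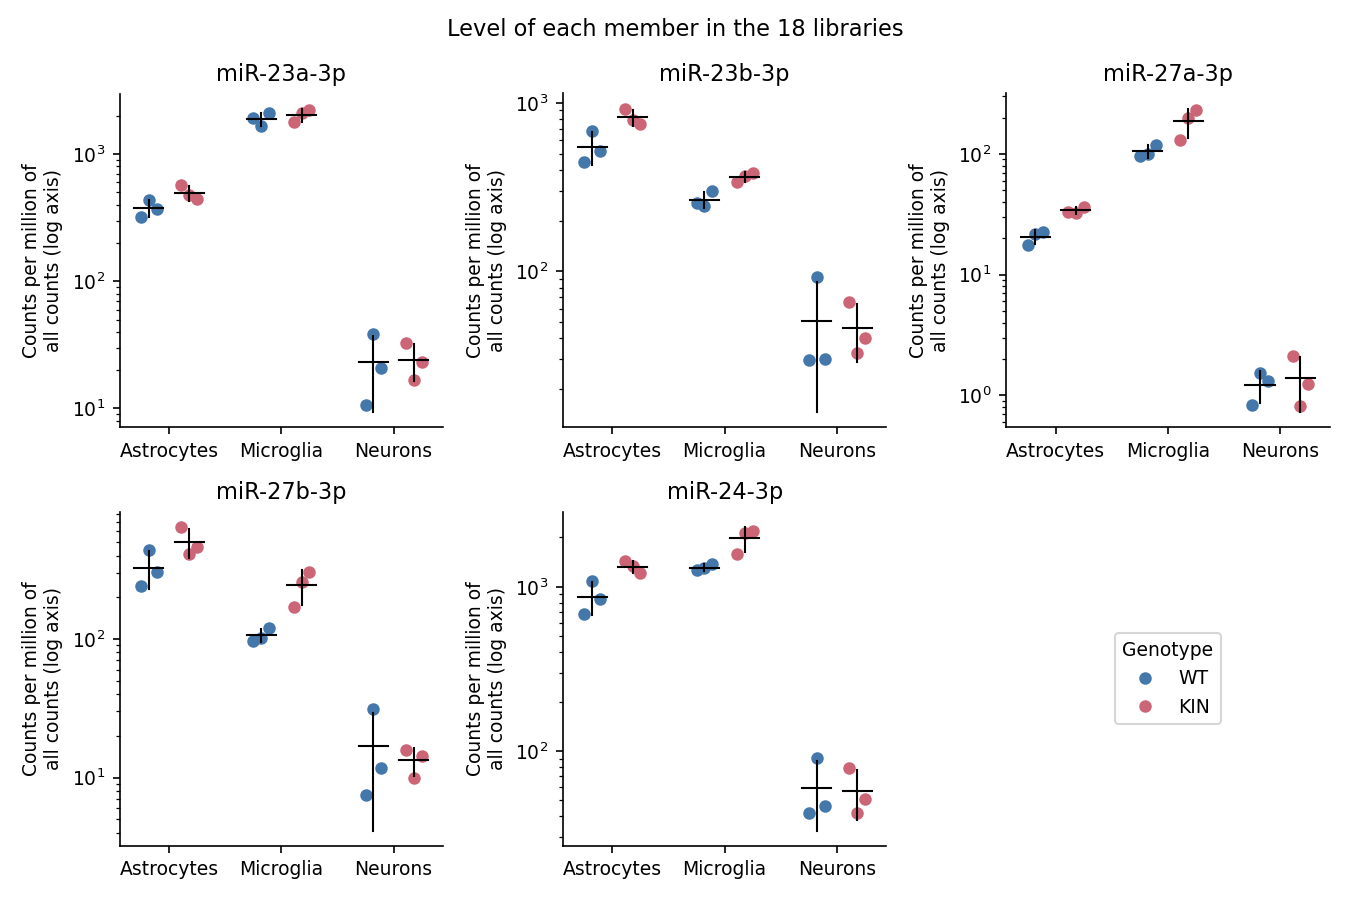
Level of each member in the 18 libraries as CPM of all counts on a log axis, by fraction and genotype, with points for libraries, horizontal lines for group means and vertical lines for 1 SD (n = 3). miR-23a-3p and miR-27a-3p peak in microglia, miR-23b-3p and miR-27b-3p in astrocytes, and all 5 are lowest in neurons.

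Shares within a pair of paralogues do not depend on the scaling of a library, since both members come from the same library. miR-23a-3p made up 88.3%, 87.2% and 87.5% of the counts of miR-23a-3p and miR-23b-3p in WT microglia, against 42.1%, 38.9% and 42.0% in WT astrocytes and 26.5%, 29.3% and 41.0% in WT neurons. miR-27a-3p made up 49.9%, 49.2% and 49.9% of the miR-27 pair in WT microglia, against 6.74%, 4.76% and 6.90% in WT astrocytes. Each share set microglia apart from both other fractions without overlap, and the astrocyte and neuron values overlapped. Every separation of 3 against 3 libraries had p = 0.1 in a two-sided exact permutation test, the smallest p that this design can give, and adjusted p = 0.164 over the 18 tests of shares.

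The second question was what the mutation did to the members in each fraction. In KIN microglia the miR-27 pair rose. In CPM scaled with TMM factors of the fraction (TMM CPM), miR-27b-3p stood at 203, 257 and 324 in KIN and at 84.2, 108 and 104 in WT microglia, a rise of 2.65-fold (log2 fold change 1.41 ± 0.24 SE, edgeR adjusted p = 0.0218). On the same scale miR-27a-3p stood at 156, 196 and 246 against 84.0, 105 and 103, a rise of 2.05-fold (1.03 ± 0.23, adjusted p = 0.0402). KIN replicate 1 was the lowest and KIN replicate 3 the highest KIN library for both. Apart from leaving out libraries, the call of miR-27a-3p held in 2 of 8 alternatives and that of miR-27b-3p in 5 of 8. That of miR-27a-3p was also lost with library totals (0.82, adjusted p = 0.0816), with no filter (0.997) and with a filter at 20 counts (0.90).

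Among the others, miR-24-3p stood at 1886, 2119.5 and 2339.6 in KIN and at 1093, 1375 and 1186 in WT microglia, and its difference (log2 0.80 ± 0.19 SE, edgeR adjusted p = 0.0460) missed the fold required. miR-23b-3p stood at 402, 365 and 409 against 221, 258 and 258 (0.68 ± 0.19, adjusted p = 0.0669). miR-23a-3p, the most abundant member in microglia, differed least, at 2115, 2086 and 2382 against 1657, 1762 and 1811 (0.33 ± 0.17, adjusted p = 0.266). In TMM CPM all 5 members were without overlap and higher in KIN, as were 13.2% of all features and 40.1% of mature miRNAs. In CPM of all counts miR-23a-3p overlapped, at 1774, 2096 and 2241 in KIN against 1667 to 2096 in WT.

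The 2 calls among 5 members compare with 1.42% of all features and 8.38% of mature miRNAs called higher in KIN microglia (4.35% and 10.5% called in either direction). The median log2 fold change was 0.80 over the members, 0.46 over mature miRNAs and -0.11 over all features. Among 382 mature miRNAs tested miR-27b-3p had the 34th highest log2 fold change and miR-27a-3p the 65th. Scaled to the totals of mature miRNA, which lowers the median of all features from -0.11 to -0.80, the log2 fold changes were 0.71 for miR-27b-3p (adjusted p = 0.0532), 0.33 for miR-27a-3p, 0.11 for miR-24-3p, -0.00074 for miR-23b-3p and -0.35 for miR-23a-3p, and no member was called. No member was called either with the replicate number as a block (miR-27b-3p adjusted p = 0.0562, miR-27a-3p adjusted p = 0.0993), nor without WT replicate 1 or 3 or KIN replicate 2 or 3.

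Markers of other cell types also moved in these libraries. The neural miRNAs miR-9-5p and miR-9-3p summed to 59.1 to 68.6 CPM of all counts in KIN microglia and 82.3 to 245 in WT microglia, and neuronal miR-124-3p fell (log2 fold change -1.28, edgeR adjusted p = 0.0485). The endothelial pair miR-126a-3p and miR-126a-5p summed to 118 to 236 in KIN and 215 to 265 in WT microglia, and neither was called. The 3 myeloid miRNAs summed to 3097 to 5914 in KIN and 2835 to 3389 in WT microglia (miR-142a-3p log2 fold change 0.91, adjusted p = 0.0473). The oligodendrocyte pair miR-219a-2-3p and miR-338-3p summed to 22.6 to 32.7 in KIN and 19.3 to 21.5 in WT. Their log2 fold changes went opposite ways (miR-338-3p 0.84, edgeR adjusted p = 0.0812, and miR-219a-2-3p -0.48, adjusted p = 0.569). Mural miRNAs summed to 59.4 to 136 in KIN and 145 to 202 in WT. The log2 fold changes of erythroid miR-451a and miR-486a-5p were 1.80 (adjusted p = 0.0723) and 2.23 (adjusted p = 0.0757). The part of these cell types in the members' values was not tested.

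In KIN astrocytes the members were all moderately higher and none was called. In TMM CPM of the fraction, miR-27a-3p stood at 33.7, 34.9 and 38.2 in KIN and at 16.1, 21.8 and 21.3 in WT astrocytes (log2 fold change 0.85 ± 0.23, edgeR adjusted p = 0.0412). miR-24-3p stood at 1454, 1443 and 1270.3 against 632, 1081 and 804 (0.73 ± 0.17, adjusted p = 0.0296). miR-27b-3p stood at 651, 441 and 479 against 223, 437 and 288 (0.73 ± 0.23, adjusted p = 0.0650).

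The miR-23 pair followed at a lower size. miR-23b-3p stood at 937, 851 and 782 in KIN and at 409, 681 and 488 in WT astrocytes (log2 fold change 0.70 ± 0.17, edgeR adjusted p = 0.0344), and miR-23a-3p at 582, 511 and 466 against 297, 433 and 353 (0.52 ± 0.15, adjusted p = 0.0491). In TMM CPM the KIN libraries were above the WT libraries for all 5 members, as they were for 14.8% of all features and 38.3% of mature miRNAs. In CPM of all counts miR-27b-3p overlapped, its lowest KIN library being at 409 and its highest WT library at 438. WT replicate 2 came closest to the KIN libraries each time.

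For 4 of 5 members in astrocytes the adjusted p was at most 0.05 at a fold below the threshold, and 4.88% of all features and 17.5% of mature miRNAs reached that adjusted p while higher in KIN. Called higher were 1.79% and 11.2%, and called in either direction 8.18% and 13.4%. All 5 had an unadjusted p at most 0.05, as had 1955 of 5694 features, and DESeq2 called none. When any 1 of 5 of the 6 libraries was left out, the adjusted p of all 5 members exceeded 0.05. Without Astrocytes_WT replicate 2 it was at most 0.00764 for each, and miR-27b-3p was called (log2 fold change 1.01). The members' median log2 fold change of 0.73 lay near the 0.58 of all 418 mature miRNAs tested. Scaled to the totals of mature miRNA, with the median of all features moved from -0.19 to -0.87, the members' values ran from -0.15 for miR-23a-3p to 0.18 for miR-27a-3p. Beside this, miR-142a-3p rose in KIN astrocytes (log2 fold change 1.96, edgeR adjusted p = 0.00975), with 3 myeloid miRNAs summing to 25.0 to 48.5 CPM of all counts in KIN and 10.2 to 12.6 in WT. The same oligodendrocyte pair summed to 1510 to 2148 CPM of all counts in KIN and 830.4 to 1496 in WT, and the endothelial pair to 219 to 442 and 346 to 563. The neuronal miRNAs went opposite ways, with a log2 fold change of 0.85 for miR-138-5p (edgeR adjusted p = 0.0167). It was -0.33 for miR-124-3p (adjusted p = 0.569) and -0.22 for miR-128-3p (adjusted p = 0.630). The 3 neuronal miRNAs summed to 1036 to 2024 in KIN and 1354 to 3150 in WT. Their part in the members' values was not tested.

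In neurons every member that could be tested overlapped between genotypes, where 10.8% of all features and 10.1% of mature miRNAs did not. Of 4 members that passed the filter none was called by edgeR or DESeq2 or had an unadjusted p at most 0.05, and none of 4535 features was called (0%) by either tool, with 197 at an unadjusted p at most 0.05 in edgeR and 124 in DESeq2. miR-23a-3p stood at 11.4, 37.8 and 20.1 TMM CPM in WT and at 31.6, 17.8 and 22.4 in KIN neurons, a log2 fold change of 0.03 (95% interval -1.04 to 1.11). For miR-24-3p it was -0.08 ± 0.42 SE, for miR-23b-3p -0.14 (-1.26 to 0.97) and for miR-27b-3p -0.35 (-1.50 to 0.79). The interval of miR-27b-3p includes the 0.73 measured in astrocytes but not the 1.41 measured in microglia, and those of the other 3 include both glial values. miR-27a-3p had 6 counts in WT and 10 in KIN neurons in all, a ratio of 1.09 (exact 95% counting interval 0.358 to 3.64).

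**Figure D3:**
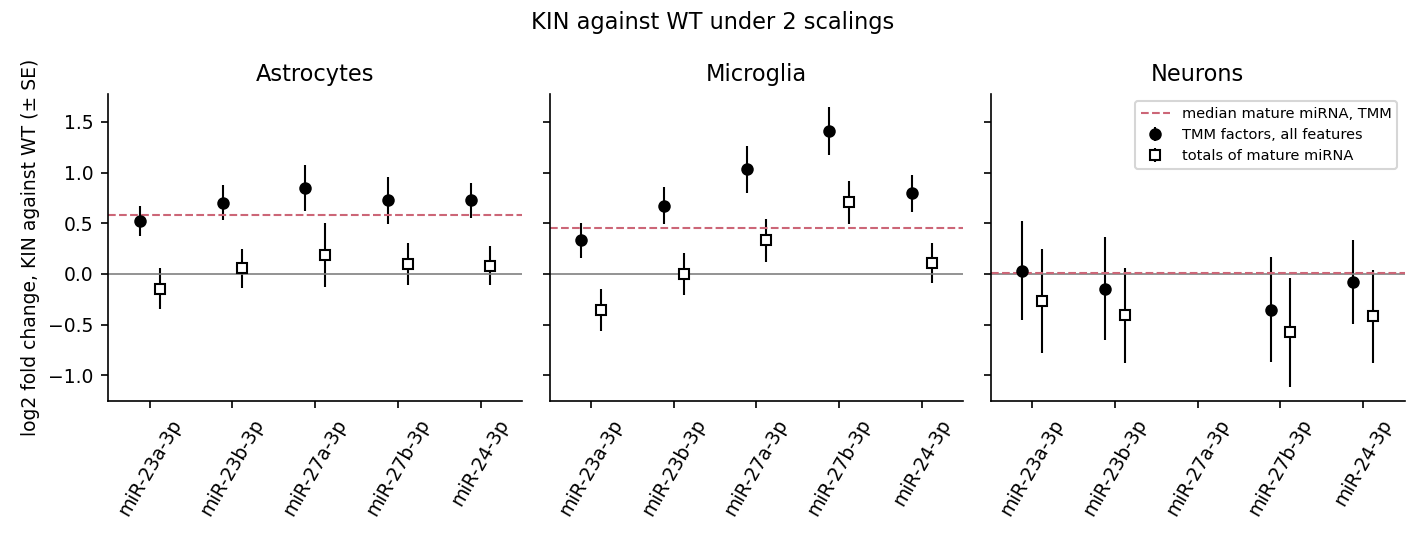
log2 fold change of each member, KIN against WT, in each fraction with bars of 1 SE (edgeR, 3 against 3 libraries), scaled with TMM factors of all features (filled) or with totals of mature miRNA (open); the dashed line is the median of all mature miRNAs tested with TMM factors. In microglia miR-27b-3p stands at 1.41 and 0.71 under the 2 scalings and miR-23a-3p at 0.33 and -0.35, while in astrocytes all members shift to near 0 with totals of mature miRNA.

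Whether the effect of the mutation differed between fractions was tested with interaction terms in a fit of all 18 libraries. No member was called by edgeR for microglia against astrocytes, for neurons against astrocytes or for neurons against microglia, where 12, 0 and 101 of 8204 features were (0.146%, 0% and 1.23%, and 0.619%, 0% and 1.65% of mature miRNAs). The widest gap was that of miR-27b-3p between neurons and microglia, with a difference in log2 fold change of -1.68 ± 0.57 (95% interval -2.85 to -0.52, unadjusted p = 0.00645, adjusted p = 0.207). It was the only interaction among the members with an unadjusted p at most 0.05, and DESeq2 called it (adjusted p = 0.0369), as did edgeR without Neurons_WT replicate 1 (-2.24, adjusted p = 0.0178). Without Neurons_WT replicate 2 the difference was -0.92 (adjusted p = 0.557). For the same miRNA the effect in microglia minus that in astrocytes was 0.67 (95% interval -0.41 to 1.75). The other members had differences between microglia and astrocytes from -0.21 to 0.18.

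The balance between paralogues was compared between genotypes as well, and no share passed its test. miR-27a-3p took 43.4%, 43.3% and 43.1% of the miR-27 pair in KIN microglia against 49.9%, 49.2% and 49.9% in WT, a difference of -6.43 percentage points. miR-23a-3p took 84.0%, 85.1% and 85.3% of the miR-23 pair, a difference of -2.85 points from WT. Neither share overlapped between genotypes, although the exact permutation p could not go below 0.1 (adjusted p = 0.164). The 3 KIN libraries lay within 43.1% to 43.4% while the counts of miR-27a-3p ran from 412 to 992.

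In astrocytes the share of miR-23a-3p was 38.3%, 37.5% and 37.4% in KIN, a difference of -3.25 points from WT and without overlap (exact permutation p = 0.1). The share of miR-27a-3p overlapped there, at 4.92%, 7.32% and 7.38% in KIN (exact permutation p = 0.5). In neurons both shares overlapped between genotypes. Summed over all 5 members, the clusters made up 3.32% ± 0.11 of mature miRNA counts in WT and 3.42% ± 0.08 in KIN astrocytes, and 6.80% ± 0.17 in WT and 6.40% ± 0.42 in KIN microglia (SD, n = 3), with overlap in both. In neurons the sum was 1.09% ± 0.20 in WT and 0.832% ± 0.08 in KIN, without overlap (exact permutation p = 0.1). As a share of all counts the neuron groups overlapped, with a difference of -0.000965 percentage points.

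**Figure D4:**
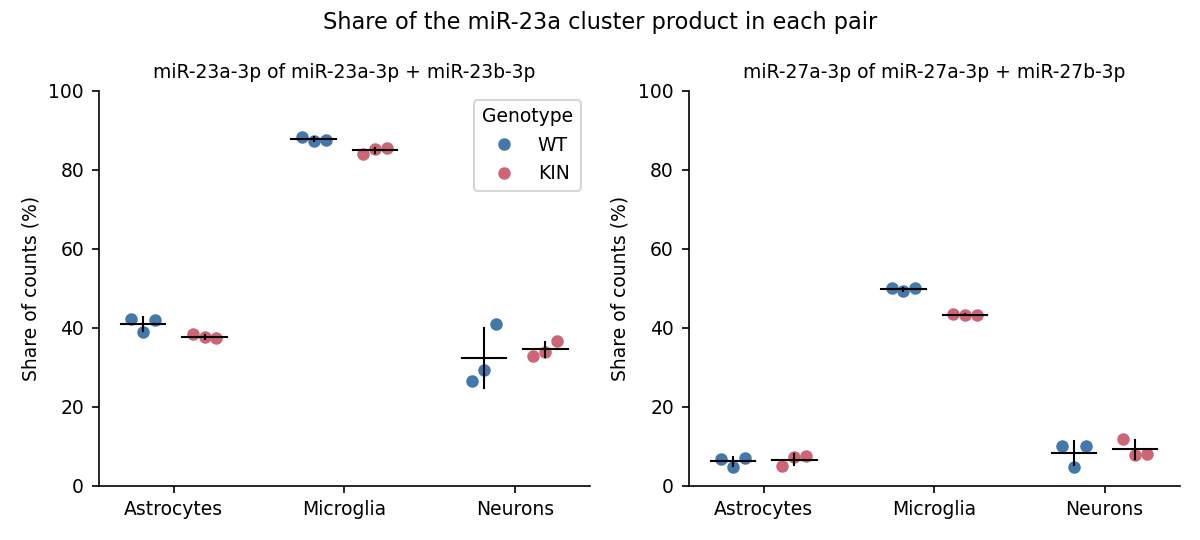
Share of counts (%) taken by miR-23a-3p among both miR-23 miRNAs (left) and by miR-27a-3p among both miR-27 miRNAs (right), by fraction and genotype, with points for libraries, horizontal lines for means and vertical lines for 1 SD (n = 3). In microglia the miR-27a-3p share lies at 49.2% to 49.9% in WT and at 43.1% to 43.4% in KIN.

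Ratios between products of the same cluster were also compared. They were chosen after the values had been seen and are given as a description, with no test. Per 100 counts of miR-23a-3p there were 5.07, 5.94 and 5.71 counts of miR-27a-3p in WT microglia and 7.38, 9.40 and 10.3 in KIN microglia. Per 100 counts of miR-23b-3p there were 38.2, 41.9 and 40.2 counts of miR-27b-3p in WT and 50.6, 70.4 and 79.2 in KIN microglia. In both clusters the miR-27 product was thus higher relative to the miR-23 product in each KIN microglial library than in any WT one.

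miR-24-3p per 100 counts of both miR-23 products likewise stood at 58.2, 68.1 and 57.3 in WT and at 74.9, 86.5 and 83.8 in KIN microglia. In astrocytes the ratio of miR-27b-3p to miR-23b-3p overlapped between genotypes (54.5 to 64.2 in WT, 51.9 to 69.4 in KIN), as did that of miR-27a-3p to miR-23a-3p (5.04 to 6.04 and 5.79 to 8.19). In neurons all 3 ratios overlapped.

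**Figure D5:**
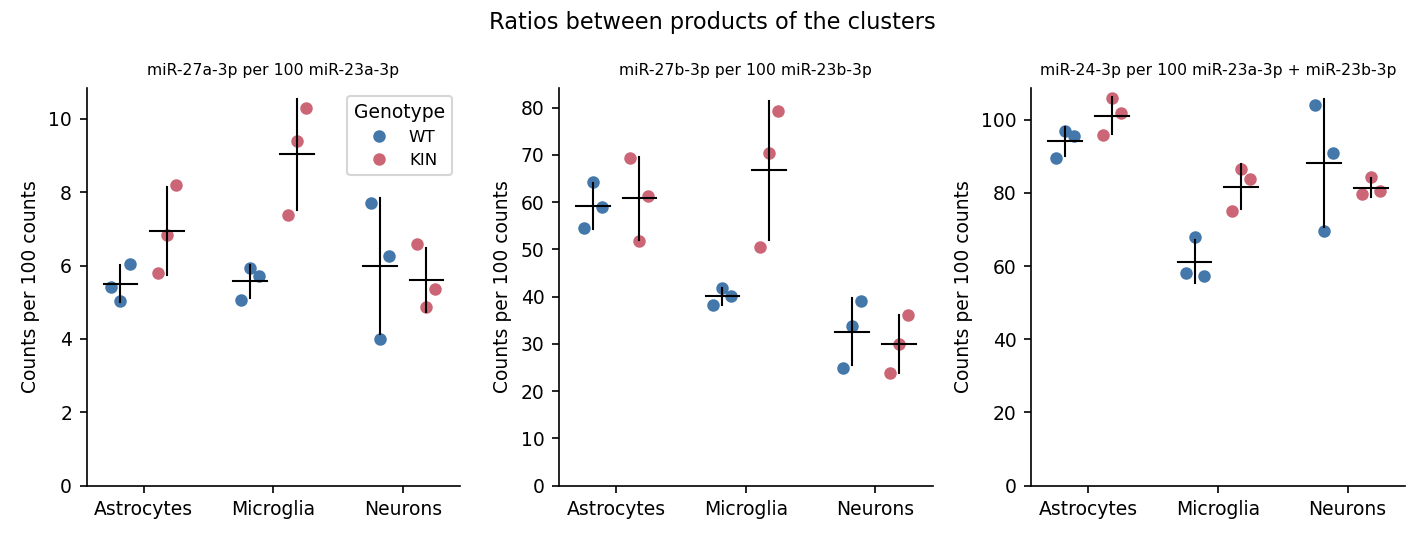
Counts of miR-27a-3p per 100 of miR-23a-3p, of miR-27b-3p per 100 of miR-23b-3p and of miR-24-3p per 100 of both miR-23 miRNAs, by fraction and genotype, with points for libraries, horizontal lines for means and vertical lines for 1 SD (n = 3). All 3 ratios are without overlap between WT and KIN in microglia, where that of miR-27b-3p runs from 38.2 to 41.9 in WT and from 50.6 to 79.2 in KIN.

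The 5p arms, the other strand cut from each hairpin, differ in sequence between the miR-24 loci, whereas miR-24-3p does not. How far their counts follow the output of each locus was not tested. Both miR-24-5p products begin with the same 16 bases, and the capitals mark the bases after them.
miR-24-2-5p: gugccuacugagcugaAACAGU
miR-24-1-5p: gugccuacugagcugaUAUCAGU

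miR-24-2-5p, from the miR-23a cluster, made up 98.7%, 99.5% and 98.7% of both in WT microglia and 72.0%, 85.1% and 72.5% in WT astrocytes. Its level was higher in WT microglia (edgeR log2 fold change 2.56 ± 0.41, adjusted p = 0.000909), whereas miR-24-1-5p, with 6 counts in WT microglia and 28 in WT astrocytes, was 4.75-fold higher in astrocytes (exact 95% counting interval 1.93 to 14.0). The edgeR test called miR-24-1-5p lower in microglia (log2 fold change -2.10 ± 0.57, adjusted p = 0.0151). That call was lost in 4 of 7 alternatives and in 2 of 6 fits with a library left out. The other 5p arms of the miR-23a cluster were scarce in astrocytes, where miR-24-2-5p had 104 counts in WT. miR-23a-5p had 113 counts in WT microglia and 1 in WT astrocytes, and miR-27a-5p had 34 and 0, at least 11.1-fold higher in microglia when astrocytes are put at 3 counts over the group. In KIN astrocytes they had 2 and 1.

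In KIN microglia 1 of 7 tested minor products was called, against 4.35% of all features and 10.5% of mature miRNAs. miR-24-2-5p rose from 49.7 ± 10.3 to 117 ± 25.7 TMM CPM (SD, n = 3; log2 fold change 1.24 ± 0.26, edgeR adjusted p = 0.0334), a call that was lost when any of 4 libraries was left out and in 5 of 8 other alternatives (lowest log2 fold change 0.54, adjusted p = 0.115, with totals of mature miRNA). The log2 fold changes of the other arms were 1.64 for miR-27b-5p (10 counts in WT, 31 in KIN, adjusted p = 0.0926), 1.07 for miR-27a-5p (adjusted p = 0.125) and 0.03 for miR-23a-5p (adjusted p = 0.970). miR-24-1-5p had 6 counts in WT and 23 in KIN (log2 fold change 1.91, adjusted p = 0.0944). In astrocytes edgeR called 0 of 4 tested minor products, against 8.18% of all features and 13.4% of mature miRNAs. Of these products miR-3074-5p alone had an unadjusted p under 0.05 (0.0497), and miR-23b-5p never passed 4 counts in a library.

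The deposited table also counts miR-3074-5p, annotated opposite miR-24. It is shown because 20 of its bases, in capitals, are complementary to miR-24-3p.
miR-3074-5p: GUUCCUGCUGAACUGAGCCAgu

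Counting did not use the strand, so miR-3074-5p and miR-24-3p cannot be told apart with certainty. miR-3074-5p amounted to 3.48 to 5.43 counts per 100 of miR-24-3p in the WT glial libraries and 3.73 to 4.88 in the KIN ones. Its log2 fold change in KIN microglia, 1.01 ± 0.25 (edgeR adjusted p = 0.0536), lay within 1 SE of that of miR-24-3p.

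Reads placed neither on mature miRNAs nor on tRNAs or piRNAs were counted on Ensembl transcripts, where the 8 hairpin genes are counted separately. In WT microglia Mir23a had 9775 counts over the group, beside 20109 of miR-23a-3p. Whether hairpin reads come from precursors or from variants of the mature miRNAs was not tested. In KIN microglia 5 of 8 were called higher, against 1.42% of all features, led by Mir27b (log2 1.38 ± 0.25 SE, edgeR adjusted p = 0.0251), and Mir23a (0.34, adjusted p = 0.263), Mir23b (0.51, adjusted p = 0.149) and Mir27a (0.91, adjusted p = 0.133) were not. The other calls, Mir24-1, Mir24-2, Mir3074-1 and Mir3074-2, lay between 1.07 and 1.14 and hold shared sequence, so they are not separate observations. The call of Mir27b was lost in 3 of 8 alternatives and when any of 4 of the 6 libraries was left out (adjusted p up to 0.136). Between WT microglia and WT astrocytes Mir23a (2.57) and Mir27a (2.94) were called higher in microglia and Mir27b (-1.69) lower, as their mature 3p products were, and Mir24-2 (1.11) and Mir3074-2 (1.17) were higher too. In KIN astrocytes edgeR called 0 of 8 hairpins, against 8.18% of all features, at log2 fold changes of 0.0057 to 0.75. An unadjusted p under 0.05 was reached by 7 of 8, and 1955 of 5694 features had one at most 0.05.

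The host gene of the miR-23b cluster could not be followed apart from its hairpins. Of the Aopep transcripts only those with a hairpin in an exon had more than a few counts, 20 to 2714 per library for the transcript with Mir24-1 and 1 to 249 for the transcript with Mir27b. Both were called higher in KIN microglia, the former at 1.05 and the latter at 1.37, beside 1.38 for Mir27b itself.

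Genes known as targets of the members were hardly covered by this small RNA assay. Of Apaf1, Pparg, Rxra, Foxo1, Spry2, Sema6a, Bcl2l11, Gata2 and Pak4 only Spry2, an inhibitor of growth factor signalling, and Foxo1, a transcription factor, had a transcript that passed the filter, and neither was called between genotypes in any fraction by edgeR. Spry2, at 15 to 124 counts per library, had log2 fold changes of 0.43 in astrocytes, 0.08 in microglia and -0.84 in neurons, with no adjusted p below 0.326. It was higher in WT neurons than in WT astrocytes (2.33, adjusted p = 0.0156) and WT microglia (2.14, adjusted p = 0.0307). Of 9 genes that make or carry microRNAs, from Drosha to the Argonautes, only 3 transcripts could be tested in neurons, against 5 in astrocytes and 6 in microglia, and edgeR called none between genotypes. Between genotypes the lowest adjusted p was that of the Dicer1 transcript in astrocytes (-2.22 ± 0.84, adjusted p = 0.0962), at 0 to 12 counts per library.

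The members' profiles over the 6 groups were compared as log2 of the mean CPM of all counts plus 1, centred on each miRNA's own mean. The mean absolute difference was 0.30 between miR-23a-3p and miR-27a-3p and 0.43 between miR-23b-3p and miR-27b-3p. Across the clusters it was 1.39 to 1.54, and miR-24-3p lay between them at 0.66 to 0.84 from each of the others. Among 150 other mature miRNAs with at least 50 counts on average, those nearest to the mean profile of the members were miR-29b-3p (0.15), let-7i-5p (0.15), miR-103-3p (0.18), miR-107-3p (0.19) and miR-500-3p (0.20). miR-24-3p itself lay at 0.06 from that mean and the other members at 0.69 to 0.80, so the list describes miR-24-3p more than the pairs. All these profiles share the same 18 libraries and their depths.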

How the data were processed

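Small RNA was sequenced from 18 libraries of 6 groups. Per the labels and the study's methods, the authors trimmed reads (cutadapt 4.6), placed them with Bowtie2 2.4.4 on mature miRNAs first and on other RNA classes after that (build mm39), and counted with HTSeq 2.0.2 without strand. The deposited counts are whole numbers per feature and not normalized. The adapters carried molecular identifiers, but collapsing of reads by them is not described for these libraries. Intervals and floors cover counting error only. Per the study's supplement a minimum read length was set in trimming and no minimum alignment quality in counting. Reads that fit both paralogues can thus be counted on either, and their number was not tested. The table also holds 36 normalized or averaged per-library columns and the authors' own fold changes and p-values of KIN against WT, which were not used.

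Groups and replicate numbers were read from the sample titles. Features that reached 5 counts in 2 or more of the libraries were fitted with edgeR 4.0.16 (R 4.3.3, TMM, quasi-likelihood) on the libraries compared, and interactions on all 18. Standard errors are the size of the fold change over the square root of F. Shares were compared by exact permutation over the 20 splits of 3 against 3. DESeq2 1.42.0, other scalings, filters, a replicate block and leaving out each library were alternatives. The fits were tested on simulated data.

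Named features were the members, the other products and hairpins of the clusters, Aopep, fixed lists of targets, processing genes and marker miRNAs, and the 5 most similar miRNAs. A gene of the target list is not reported here. Members and lists were chosen with earlier results of these data known. The methods describe sequential isolation from single brains. Deviations of the WT microglia and neuron libraries correlated with those of the astrocyte library of the same replicate number (0.22 to 0.473). Replicates 1 and 3 were not told apart, as neuron replicate 3 correlated with astrocyte replicate 1 at 0.396 and with astrocyte replicate 3 at 0.298. At the same number neurons with microglia ran from 0.00939 to 0.336, and KIN was not paired with WT (-0.6 to 0.435). P-values measure the spread between these libraries. Positions are GENCODE vM39 on GRCm39; sequences are RefSeq.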

Additional observations from a re-analysis of the deposited data

How the results depend on the processing

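Among the members, direction held for all 5 in every alternative run for the 3 comparisons between WT fractions. Of 70 member values under alternatives in each, 4 gained a call between microglia and astrocytes, 1 lost it between neurons and astrocytes and 4 lost it between neurons and microglia. Counts of members called that moved were the following. In KIN astrocytes 1 was called with no filter on low counts. In KIN microglia 1 was called with library totals, with no filter and with a filter at 20 counts, and 0 with TMM factors from mature miRNA, with totals of mature miRNA and with the replicate block. Between WT neurons and WT microglia 3 were called with TMM factors from mature miRNA and with its totals. For the effect in neurons minus that in microglia DESeq2 called 1. Leaving out a library gave 0 to 1 in KIN astrocytes, 0 to 2 in KIN microglia and 0 to 1 for that interaction. The causes were not tested.

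Some log2 fold changes changed sign, many of them with scaling to mature miRNA, and not all of these were near 0. In the main fits miR-23a-3p was 0.52 in astrocytes and 0.33 in microglia, and miR-23b-3p was 0.68 in microglia. With TMM factors from mature miRNA and with its totals, miR-23a-3p was -0.18 and -0.15 in astrocytes and -0.0792 and -0.35 in microglia, and miR-23b-3p was -0.00074 in microglia with totals. miR-23a-5p in microglia was -0.18 with library totals, -0.41 with TMM factors from mature miRNA, -0.68 with its totals, -0.00217 with no filter, -0.10 with a filter at 20 counts, -0.00716 with the replicate block, and -0.12 to 0.21 when a library was left out. In neurons miR-23a-3p was -0.0030, -0.27 and -0.0447 with TMM factors from mature miRNA, its totals and the filter at 20 counts, miR-23b-3p was 0.0032 with no filter and 0.0263 with the replicate block, and miR-24-3p was 0.0829 with no filter and 0.0406 in 1 fit of all libraries. Leaving out a library there gave -0.29 to 0.54 for miR-23a-3p, -0.46 to 0.57 for miR-23b-3p, -0.35 to 0.31 for miR-24-3p and -0.67 to 0.41 for miR-27b-3p.

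Differences between fractions in the effect of the mutation changed sign too. Microglia minus astrocytes was 0.0396 (DESeq2) and 0.0619 (TMM factors from mature miRNA) for miR-23b-3p and -0.0191 (library totals) for miR-24-3p, with -0.36 to 0.19 for miR-23b-3p, -0.26 to 0.30 for miR-24-3p and -0.0618 to 0.42 for miR-27a-3p when a library was left out. In the main fit neurons minus astrocytes was -0.41 for miR-23a-3p, -0.75 for miR-23b-3p and -0.61 for miR-27a-3p. With TMM factors from mature miRNA these were 0.34, 0.0212 and 0.13, and that of miR-23a-3p was -1.003 to 0.14 when a library was left out. Neurons minus microglia for miR-23a-3p was 0.44 with TMM factors from mature miRNA, 0.0798 with its totals, and -0.77 to 0.29 when a library was left out. The summed share of the members in microglia differed by 0.112 percentage points with all counts as denominator. Leaving out a library gave differences of -0.70 to 6.55 points for the miR-23a-3p share in neurons, and of -0.28 to 1.22 in astrocytes and -0.84 to 1.82 in neurons for the miR-27a-3p share.

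Over all features, calls in KIN astrocytes numbered 466, but 1494 and 1427 with TMM factors and totals of mature miRNA, 252 with a filter at 20 counts and 159 in 1 fit of all libraries. In KIN microglia they numbered 215, but 378 with DESeq2, 329 and 651 with both miRNA scalings, 426 with no filter, 334 in 1 fit and 49 with the replicate block, where miR-27b-3p had an adjusted p of 0.0562. In KIN neurons edgeR called 0 (197 at an unadjusted p at most 0.05, DESeq2 0), but 20 and 37 with both miRNA scalings and 75 with no filter. Calls between WT microglia and astrocytes fell from 2016 to 1050 with a filter at 20 counts. Against astrocytes, neurons had 1698, but 3104 and 3189 with both miRNA scalings, 1119 with that filter and 2674 in 1 fit, and against microglia 1446, but 3079, 3341 and 936. For the interactions, microglia minus astrocytes had 12 calls (0 to 108 over the alternatives other than leaving out a library), neurons minus astrocytes 0 (4 with no filter) and neurons minus microglia 101 (183 with DESeq2, 154 with TMM factors from mature miRNA, 41 in a fit of both fractions alone). Leaving out a library gave 41 to 1527 calls in KIN astrocytes, 0 to 940 in KIN microglia and 0 to 52 in KIN neurons. Replicate numbers did not pair KIN with WT libraries. The block changed no call of a member between WT fractions.

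Depth limits the neuron libraries most, where miR-27a-3p rests on 1 to 5 counts. With 3 libraries a group, the exact permutation test of a share cannot go below p = 0.1. Whether the counts were collapsed by molecular identifiers is not described, and the share of PCR copies among them was not tested.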
